A study of Arabidopsis thaliana with 10 samples.

Results

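The genes described here are the 33 probe sets of the Arabidopsis ATH1 array that the study lists as ethylene-related and that are present in the value table, out of 22746 probe sets that are not controls. The study drew such groups from probe sets that passed its filter, which removed those called absent on these arrays. Detection on these arrays therefore bore on the list. By role the list holds 2 genes of ethylene synthesis (ETO1 and EFE), 3 receptors and the receptor regulator RTE1, 4 genes of signal transduction (EIN2, EIN3, EIL1 and EIL3), 7 ERF factors counted here as activators, 3 ERF repressors (ERF3, ERF4 and ERF8), 2 other AP2/ERF proteins, 2 calmodulin-binding factors, 6 genes annotated only as ethylene-responsive, and 3 whose place rests on a name or a word in the annotation. The last 3, EGY1, PDX1.1 and MTHFR1, have probe sets shared by 2 loci each, so their levels cannot be assigned to 1 gene, and MTHFR1 is a methylenetetrahydrofolate reductase, whose annotation contains the word ethylene only as a part of methylene.

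RNA came from leaves of soil-grown plants at 30 days and was hybridized to 10 arrays. The oxt6 mutant (3 arrays) carries a T-DNA insertion in At1g30460, the gene that encodes AtCPSF30, a subunit of the complex that cleaves and polyadenylates pre-mRNA, together with a larger related protein. The complemented plants (4 arrays, 2 from each of lines 5 and 6) are oxt6 transformants that express only the smaller protein, so they share the insertion and each line is 1 transformant. The wild-type (3 arrays) is the Columbia background of the mutant. Each preparation was made from a pool of plants, and the preparations of highest RNA quality were chosen for the arrays. Levels are PLIER intensities, a linear summary of each probe set's brightness in arbitrary units with a floor at 16, and levels of different probe sets were not compared with each other.

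Ethylene is a gaseous hormone made from methionine through ACC, which ACC oxidases such as EFE turn into ethylene. Its receptors, among them ETR1, ERS1 and EIN4, sit in membranes and hold the pathway off in the absence of the gas; once they bind it, EIN2 passes the signal on and the factors EIN3 and EIL1 are stabilised and switch on target genes. Many of these targets encode ERF factors of the AP2/ERF family, some of which activate defence and stress genes, while others, such as ERF3 and ERF4, carry an EAR motif and repress transcription.

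Some facts of the arrays bear on all values. The probe set of AtCPSF30, which recognises only the longer mRNA of the gene, read 27.1 to 54.7 in oxt6, 16 to 18.7 in the complemented plants and 38.7 to 71.2 in the wild-type, so it did not separate the mutant from the wild-type. The study reports from RNA blots that oxt6 lacks both mRNAs of the gene, and cites earlier work for the loss of both proteins. The arrays labelled oxt6 therefore did not show the loss of the longer mRNA on this probe set. It was too dim to be among those compared, and the reason for these levels was not tested. The median intensities of the arrays ran from 40.9 to 60.5. In what follows oxt6 means the arrays labelled so, and each direction given for oxt6 rests on the label. For 3 control genes the log2 level at the 3' end minus that at the 5' end, a measure of how far the 5' parts of transcripts are lost from the labelled RNA, averaged 2.24 ± 1.0 in oxt6 (SD, n = 3), 0.039 ± 0.069 in the complemented plants (SD, n = 4) and 2.18 ± 0.18 in the wild-type (SD, n = 3). The complemented arrays therefore stood apart from both other groups (exact permutation test, two-sided p = 0.0286 for each, the smallest this design allows against either group), and oxt6 and the wild-type differed by 0.056 (exact p = 1). The array of oxt6 replicate 1 stood apart within its group, with a 3'/5' signal of 1.09, a median intensity of 40.9 and 2920 probe sets at the floor, against 11 to 1234 on the other arrays. Of 18 markers listed for leaf and other tissues, 2 have a probe set named here. RCA, the Rubisco activase of leaves, read 3351, 712 and 631 in oxt6, 6067, 6043, 8232 and 7673 in the complemented plants and 1504, 1569 and 1139.6 in the wild-type, and PYK10, a beta-glucosidase known from roots, read 179 to 205, 253 to 331 and 77.1 to 129 in the same groups. Both were higher in the complemented plants than in the wild-type (limma, log2 difference 2.32 (adjusted p = 0.000331) for RCA and 1.57 (adjusted p = 8.18e-06) for PYK10), PYK10 also in oxt6 leaves than in the wild-type (0.98 (adjusted p = 0.00237)), and their part in the results was not tested. In leaf RNA of this kind a smaller share of a cell type and less RNA per cell cannot be told apart.

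Of the 33 genes, 31 were among the brightest 54.7% of probe sets, which were compared in limma, and ETO1 and RH30 were too dim. Since the list had passed the study's filter for detection, that count says nothing particular about these genes. In oxt6 against the wild-type 8 of the 31 passed an adjusted p of 0.05. AT1G05710, AT5G25190 and ERS1 were higher, and ERF4, ERF15, AT3G19500, CEJ1 and ERF3 were lower. Of all probe sets compared 16.4% were higher and 12.3% lower, or 28.7% in all, which is close to the 25.8% of the ethylene-related genes. The median log2 difference was -0.20 for the 31 genes and -0.04 for all probe sets.

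Differences from the complemented plants were more frequent, for these genes as for all. Against the complemented plants 9 of the 31 were higher in oxt6, where 32.3% of all probe sets were, and 10 were lower, where 37.0% were. In the complemented plants against the wild-type 9 were higher, where 38.0% of all probe sets were, and 12 were lower, where 33.8% were. The median log2 differences were -0.19 and -0.09 for the 31 genes and -0.03 and 0.04 for all probe sets. These comparisons share samples, so that a gene with unusual levels in the complemented plants appears in both. With each array centred on its median, 11 genes were higher and 6 lower in oxt6 leaves than in the complemented plants in place of 9 and 10. All probe sets compared moved the same way, with 5221 higher and 4042 lower in place of 4028 and 4603.

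Few genes set oxt6 apart from both other groups. AT1G05710 and AT5G25190 were higher in oxt6 leaves than in the complemented plants and the wild-type, a pattern that 9.36% of all probe sets had, and ERF3 was lower than in both, as were 5.24%. The complemented plants stood apart more often. EFE, ERS1, EIN4, EIN2, EIN3, EIL1, ERF2 and MTHFR1 were higher in them than in oxt6 and the wild-type, a pattern of 31.0% of all probe sets, and RTE1, EIL3, ERF5, ERF15, ORA59, AT5G25190, AT3G19500 and AT2G31730 were lower than in both, as were 24.9%.

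**Figure D1:**
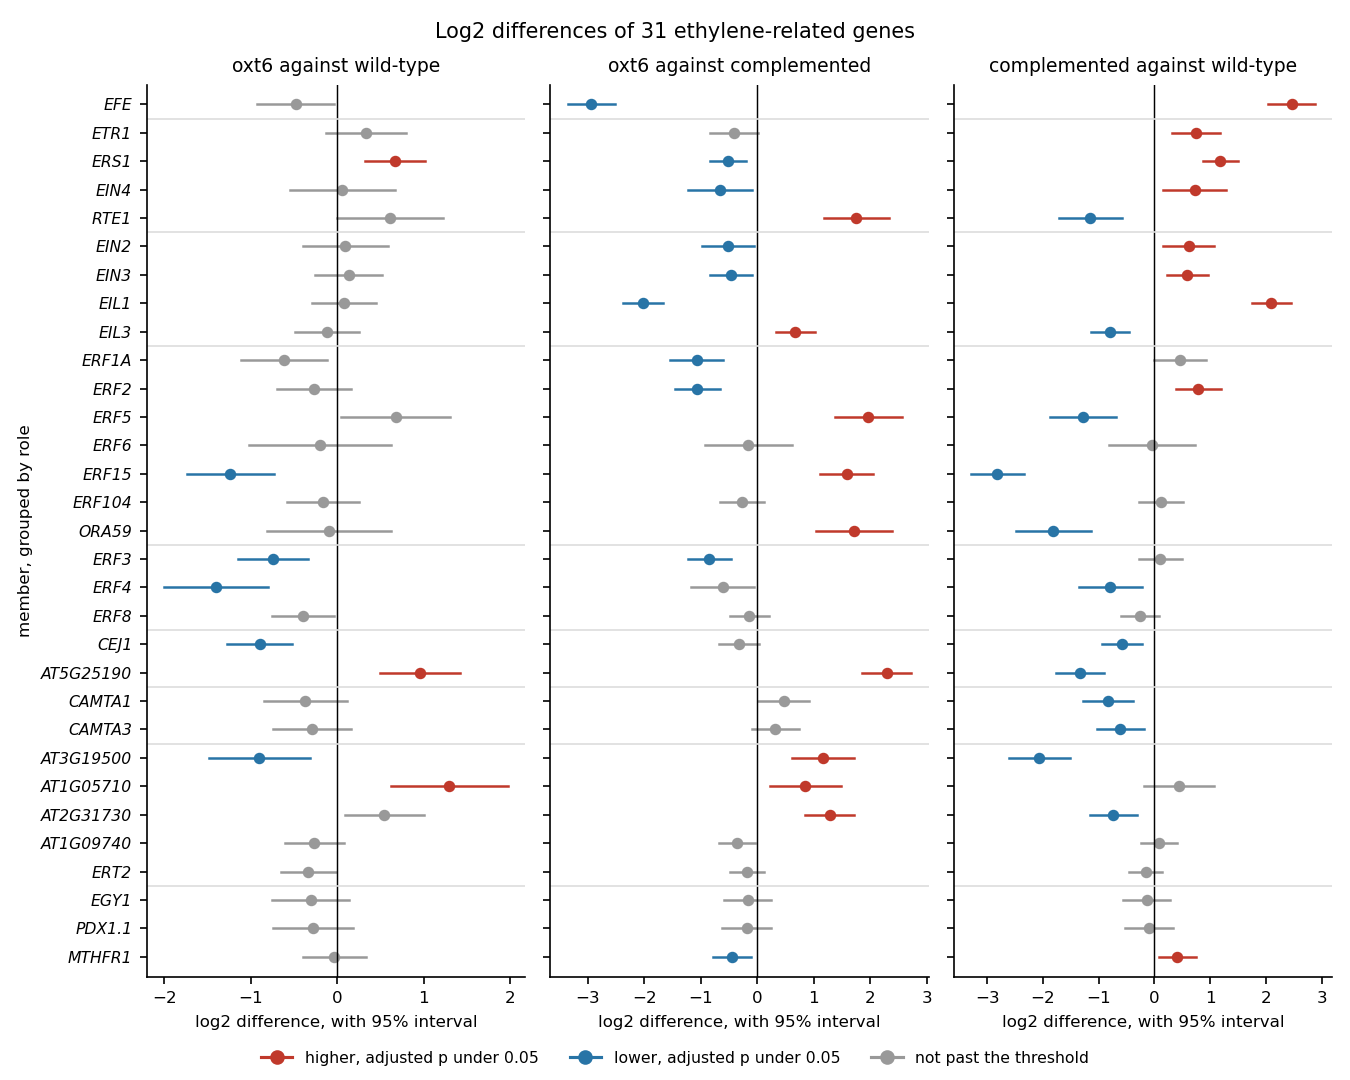
Log2 differences (x axis, points) with 95% intervals (lines) of the 31 ethylene-related genes compared, in oxt6 against the wild-type, oxt6 against the complemented plants and the complemented plants against the wild-type. Red marks genes higher and blue genes lower in the first-named group at an adjusted p under 0.05, grey the others, and grey rules separate the roles: 8 genes are coloured on the left, 19 in the middle and 21 on the right, where EFE and EIL1 lie farthest to the right and ERF15 farthest to the left.

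The first of the synthesis genes, EFE, encodes an ACC oxidase that carries out the last step of ethylene formation. It read 264, 245 and 150.5 in oxt6, 1560.1, 1617, 1694 and 1709 in the complemented plants, and 325, 288 and 281 in the wild-type. The complemented arrays lay far above all others, and oxt6 lay below the wild-type on each array. The level in the complemented plants was 5.51-fold that in the wild-type (log2 difference 2.46 ± 0.19 (SE, adjusted p = 5.26e-07)) and 7.67-fold that in oxt6 (log2 difference of oxt6 -2.94 ± 0.19 (SE, adjusted p = 1.13e-07)), which was the largest rise of the list in the complemented plants against the wild-type and the largest fall in oxt6 against the complemented plants. Between oxt6 and the wild-type EFE did not pass, at -0.48 ± 0.21 (SE, adjusted p = 0.103). Both lines lay at this level, with 1560.1 and 1617 in line 5 and 1694 and 1709 in line 6.

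The second, ETO1, encodes an adaptor protein that sends some ACC synthases to degradation. Its levels were 28.3, 35.0 and 27.7 in oxt6, 62.9, 67.5, 74.3 and 75.5 in the complemented plants, and 33.4, 17.3 and 26.7 in the wild-type, which placed it at rank 13529 by mean level, outside the probe sets compared. In a fit without that limit ETO1 differed by 0.27 between oxt6 and the wild-type (adjusted p = 0.543), by -1.19 between oxt6 and the complemented plants (adjusted p = 0.000275) and by 1.45 between the complemented plants and the wild-type (adjusted p = 3.88e-05). The complemented arrays did not overlap with the others. ACO3, another ACC oxidase that is not on the study's list, was also too dim to be compared and read 27.0, 39.5 and 18.2 in oxt6, 75.6, 101, 81.5 and 86.2 in the complemented plants, and 16.0, 23.2 and 32.3 in the wild-type, again with the complemented arrays above all others.

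Among the receptors, ERS1 was the one that differed in every comparison. It read 88.8, 107 and 109 in oxt6, 131, 133, 156 and 162 in the complemented plants, and 66.2, 65.3 and 58.5 in the wild-type, and the 3 groups did not overlap. ERS1 was higher in oxt6 leaves than in the wild-type by 0.67 ± 0.16 (SE, adjusted p = 0.00659), higher in the complemented plants than in the wild-type by 1.18 ± 0.15 (SE, adjusted p = 1.31e-05), and lower in oxt6 leaves than in the complemented plants, at -0.51 ± 0.15 (SE, adjusted p = 0.00758). The order of the levels was therefore complemented, oxt6, wild-type. The difference between oxt6 and the wild-type passed in all 22 alternatives tried, and that between the complemented plants and the wild-type in all 24. That between oxt6 and the complemented plants did not pass with quantile normalization, at -0.30 (adjusted p = 0.0795), with line 5 as the only complemented line, at -0.38 (adjusted p = 0.0987), or with the 3'/5' signal as a covariate, at -0.80 (adjusted p = 0.0642).

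ETR1, the first ethylene receptor to be identified, read 38.7, 61.1 and 54.1 in oxt6, 56.4, 58.7, 85.6 and 72.8 in the complemented plants, and 41.1, 38.1 and 40.1 in the wild-type. The wild-type arrays were close together and below the complemented ones, while oxt6 overlapped with both. ETR1 was higher in the complemented plants than in the wild-type by 0.75 ± 0.20 (SE, adjusted p = 0.00424), and did not pass in oxt6 against the wild-type (0.34 (adjusted p = 0.266)) or against the complemented plants (-0.41 (adjusted p = 0.0803)). With line 5 as the only complemented line the difference of the complemented plants from the wild-type did not pass, at 0.52 (adjusted p = 0.0761), and with line 6 it did, at 0.97 (adjusted p = 0.00346).

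EIN4, the remaining receptor listed, read 22.4, 61.1 and 46.8 in oxt6, 57.7, 65.2, 67.4 and 66.1 in the complemented plants, and 37.4, 38.7 and 39.3 in the wild-type. The spread within oxt6 was wide, with replicate 1, the array that stood apart, the lowest of all 10. EIN4 was higher in the complemented plants than in the wild-type by 0.72 ± 0.26 (SE, adjusted p = 0.0248) and lower in oxt6 leaves than in the complemented plants, at -0.66 ± 0.26 (SE, adjusted p = 0.0382). The difference of oxt6 from the complemented plants did not pass without oxt6 replicate 1, line 5 replicate 2, line 6 replicate 1 or 2 or wild-type replicate 1 (log2 difference -0.66 to -0.25, adjusted p = 0.0501 to 0.173). The difference of the complemented plants from the wild-type did not pass without line 6 replicate 1 or wild-type replicate 1, 2 or 3 (log2 difference 0.70 to 0.74, adjusted p = 0.0504 to 0.0651). Between oxt6 and the wild-type the difference was 0.06 (adjusted p = 0.9).

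RTE1, a membrane protein that promotes signalling by ETR1, went the other way. It read 237, 483 and 463.5 in oxt6, 94.6, 148, 111 and 95.8 in the complemented plants, and 204, 223 and 329 in the wild-type. Every complemented array was lower than every oxt6 and wild-type array. RTE1 was lower in the complemented plants than in the wild-type by a log2 difference of -1.15 ± 0.27 (SE, adjusted p = 0.00158) and 3.38-fold higher in oxt6 leaves than in the complemented plants (log2 difference 1.76 ± 0.27 (SE, adjusted p = 6.1e-05)). Its difference between oxt6 and the wild-type, 0.61 ± 0.28 (SE, adjusted p = 0.129), did not pass.

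RTH, the homologue of RTE1, is not on the study's list but is 1 of 43 further ethylene genes that were looked up, of which 5 have a probe set named here. It read 306, 428 and 379.7 in oxt6, 146, 141, 158 and 130.1 in the complemented plants, and 185, 209 and 149 in the wild-type. All oxt6 arrays were above all others, and RTH was higher in oxt6 leaves than in the wild-type by 1.03 ± 0.18 (SE, adjusted p = 0.00106) and than in the complemented plants by 1.35 ± 0.17 (SE, adjusted p = 1.56e-05). The complemented plants and the wild-type differed by -0.32 (adjusted p = 0.112).

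Signal transduction gave no difference between oxt6 and the wild-type that passed, while all 4 genes differed between the complemented plants and each other group, where 69.3% of all probe sets differed from oxt6 and 71.8% from the wild-type. With the 3'/5' signal as a covariate only EIL1 of the 4 passed, in both comparisons. EIN2, the membrane protein that links the receptors to the nucleus, read 104, 123 and 96.4 in oxt6, 132, 127.5, 210.2 and 157 in the complemented plants, and 116, 116 and 74.5 in the wild-type. The complemented arrays were above all others, line 6 more than line 5. EIN2 was higher in the complemented plants than in the wild-type by 0.61 ± 0.21 (SE, adjusted p = 0.019) and lower in oxt6 leaves than in the complemented plants, at -0.52 ± 0.21 (SE, adjusted p = 0.0434), against 0.10 (adjusted p = 0.787) in oxt6 against the wild-type. The difference of oxt6 from the complemented plants did not pass without oxt6 replicate 1 or 3 or line 6 replicate 1 or 2 (log2 difference -0.51 to -0.37, adjusted p = 0.0779 to 0.133), and that of the complemented plants from the wild-type did not pass without line 6 replicate 1 or wild-type replicate 3 (log2 difference 0.40 to 0.46, adjusted p = 0.0602 to 0.111). With line 5 as the only complemented line the complemented plants did not pass against the wild-type or oxt6, at 0.37 (adjusted p = 0.179) and -0.28 (adjusted p = 0.321).

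EIN3, the main transcription factor of the pathway, read 336, 315 and 300.3 in oxt6, 437, 383, 448 and 484 in the complemented plants, and 311, 336 and 231 in the wild-type. The complemented arrays were again above all others. EIN3 was higher in the complemented plants than in the wild-type by 0.59 ± 0.17 (SE, adjusted p = 0.00666) and lower in oxt6 leaves than in the complemented plants, at -0.46 ± 0.17 (SE, adjusted p = 0.0269). The difference of oxt6 from the complemented plants did not pass without oxt6 replicate 2 or 3 or line 6 replicate 1 or 2 (log2 difference -0.46 to -0.41, adjusted p = 0.0573 to 0.0886). The difference between oxt6 and the wild-type was 0.13 (adjusted p = 0.625).

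EIL1, the closest homologue of EIN3, had the second largest rise of the list in the complemented plants. It read 53.0, 45.4 and 46.0 in oxt6, 174, 178, 231 and 213 in the complemented plants, and 45.8, 39.4 and 51.9 in the wild-type. The levels in oxt6 and the wild-type overlapped, and the lowest complemented array was far above the highest of the others. EIL1 was 4.28-fold higher in the complemented plants than in the wild-type (log2 difference 2.10 ± 0.16 (SE, adjusted p = 4.68e-07)) and lower in oxt6 leaves than in the complemented plants, at -2.02 ± 0.16 (SE, adjusted p = 4.3e-07). The difference between oxt6 and the wild-type was 0.08 (adjusted p = 0.767), with an interval of -0.29 to 0.45.

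EIL3, an EIN3-like factor known for the response to sulphur limitation, moved opposite to EIN3 and EIL1 in the complemented plants. It ranged over 93.6 to 106 in oxt6, 56.3 to 63.6 in the complemented plants and 93.4 to 136 in the wild-type. EIL3 was lower in the complemented plants than in the wild-type, at -0.80 ± 0.16 (SE, adjusted p = 0.000536), and higher in oxt6 leaves than in the complemented plants by 0.68 ± 0.16 (SE, adjusted p = 0.00192). ETP2, an F-box protein that targets EIN2 and belongs to the further genes looked up, passed in none of the comparisons, with levels of 46.2 to 80.7, 52.4 to 65.9 and 50.1 to 65.7 in the same order of groups.

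**Figure D2:**
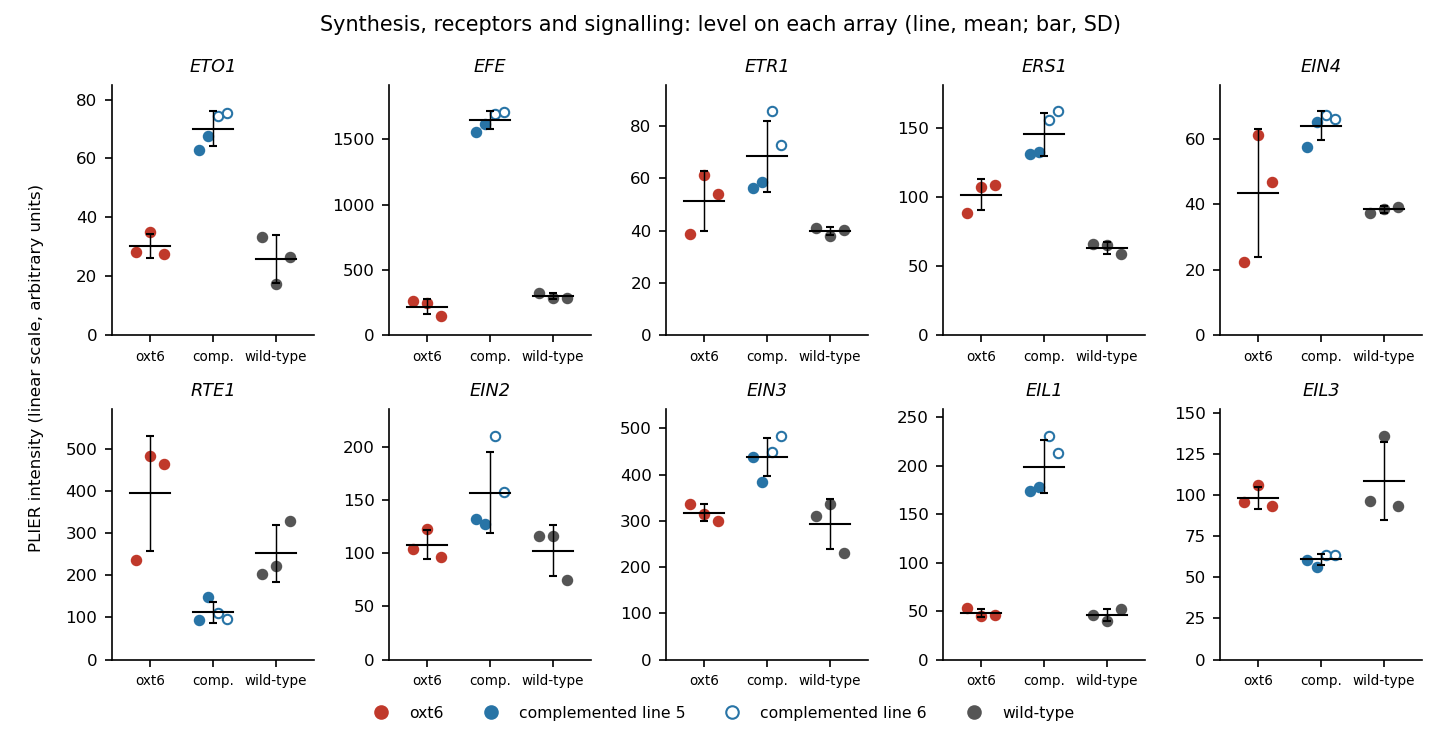
PLIER intensity (y axes, linear scale from 0, each gene on its own scale) of the 10 genes of synthesis, reception and signal transduction on each array, in oxt6, complemented plants (comp.; line 5 filled, line 6 open) and the wild-type. Lines are means and bars SDs (n = 3, 4 and 3). The complemented arrays lie above the others for ETO1, EFE, ERS1, EIN2, EIN3 and EIL1 and below them for RTE1 and EIL3. The share of all probe sets without such overlap was not counted. By adjusted p under 0.05 in each comparison, 31.0% of all probe sets compared were higher in the complemented plants than in both other groups. Another 24.9% were lower than in both.

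Of the 7 ERF activators, 1 was higher and 3 were lower in the complemented plants than in the wild-type. Of all probe sets compared 38.0% were higher and 33.8% lower there. In oxt6 against the wild-type 1 of the 7, ERF15, passed, where 28.7% of all probe sets did, and 7 genes are too few to be read against these shares. ERF15 read 137, 237 and 204 in oxt6, 67.9, 77.2, 53.1 and 52.8 in the complemented plants, and 380.1, 409.6 and 558 in the wild-type. The 3 groups did not overlap, with the wild-type highest and the complemented plants lowest. ERF15 was lower in oxt6 leaves than in the wild-type, at -1.23 ± 0.23 (SE, adjusted p = 0.00162), and 7.05-fold lower in the complemented plants than in the wild-type (log2 difference -2.82 ± 0.22 (SE, adjusted p = 5.24e-07)), so that oxt6 was above the complemented plants by 1.59 ± 0.22 (SE, adjusted p = 3.03e-05). The complemented plants were farther from the wild-type than the mutant was.

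ORA59, which joins ethylene and jasmonate signals at defensin genes, read 376, 542 and 563.5 in oxt6, 213 and 234.5 in line 5, 107 and 86.2 in line 6 and 477, 585 and 499 in the wild-type. The oxt6 and wild-type levels overlapped and differed by -0.09 (adjusted p = 0.865). ORA59 was higher in oxt6 leaves than in the complemented plants by 1.72 ± 0.31 (SE, adjusted p = 0.000261) and lower in the complemented plants than in the wild-type, at -1.81 ± 0.31 (SE, adjusted p = 0.000159). PDF1.2, a defensin gene that ORA59 is known to activate and 1 of the further genes looked up, read 1627, 1028 and 1049 in oxt6, 218, 240.3, 209 and 195 in the complemented plants, and 1765, 1798 and 788 in the wild-type. Its log2 differences were 2.48 (adjusted p = 4.62e-06) and -2.65 (adjusted p = 2.77e-06) in the same comparisons and -0.17 (adjusted p = 0.699) in oxt6 against the wild-type. Line 5 was above line 6 by 1.21 for ORA59 (adjusted p = 0.00815), while for PDF1.2 the lines differed by 0.18 (adjusted p = 0.882). HEL, a hevein-like defence protein induced by ethylene, was lower in oxt6 leaves than in the wild-type, at -0.60 (adjusted p = 0.0207), with 3104, 2521 and 2117 in oxt6 and 4022, 4030.0 and 3525 in the wild-type, and lower in the complemented plants than in the wild-type, at -0.87 (adjusted p = 0.000331).

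ERF5 read 321.5, 282 and 269.9 in oxt6, 119.7, 82.2, 72.9 and 40.7 in the complemented plants, and 163, 172 and 212 in the wild-type. Its arrays fell into 3 levels that did not overlap, highest in oxt6 and lowest in the complemented plants. ERF5 was 3.9-fold higher in oxt6 leaves than in the complemented plants (log2 difference 1.97 ± 0.27 (SE, adjusted p = 3.19e-05)) and lower in the complemented plants than in the wild-type, at -1.29 ± 0.27 (SE, adjusted p = 0.000874). The difference between oxt6 and the wild-type, 0.68 ± 0.29 (SE, adjusted p = 0.104), did not pass although each oxt6 array was higher.

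ERF1A and ERF2, 2 activators known to be induced by ethylene and jasmonate, had their highest mean levels in the complemented plants. ERF1A read 44.8, 80.7 and 56.7 in oxt6, 139.6, 158, 108 and 102 in the complemented plants, and 89.9, 80.4 and 104 in the wild-type, and ERF2 read 81.3, 105 and 94.1 in oxt6, 270.4, 175, 165 and 182 in the complemented plants, and 105, 108 and 123 in the wild-type. Neither differed past the threshold between oxt6 and the wild-type, with -0.62 (adjusted p = 0.0606) for ERF1A and -0.26 (adjusted p = 0.348) for ERF2. Both were lower in oxt6 leaves than in the complemented plants, ERF1A by a log2 difference of -1.07 ± 0.21 (SE, adjusted p = 0.000589) and ERF2 by one of -1.05 ± 0.19 (SE, adjusted p = 0.00021). Only ERF2 passed in the complemented plants against the wild-type, at 0.79 (adjusted p = 0.00179), where ERF1A had 0.45 (adjusted p = 0.0725).

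ERF104, a substrate of a MAP kinase, and ERF6 passed in none of the 3 comparisons. ERF104 ranged over 156 to 212.5 in oxt6, 181 to 271 in the complemented plants and 193 to 232 in the wild-type. ERF6 read 215, 124 and 121 in oxt6, 268 and 261 in line 5, 116 and 90.1 in line 6 and 174, 139 and 201 in the wild-type, and the gap between the complemented lines was wider than any difference between groups.

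Of the ERF repressors, ERF4 and ERF3 were lower in oxt6 leaves than in the wild-type, where 12.3% of all probe sets were, and 3 genes are too few to be read against that share. ERF4 had the largest fall of the list in that comparison. It read 741, 706 and 761 in oxt6 and 1813, 1953 and 2078 in the wild-type, and averaged 736 ± 27.7 and 1948 ± 133 (SD, n = 3 each). The wild-type level was 2.64 times that of oxt6 (log2 difference -1.40 ± 0.28 (SE, adjusted p = 0.00212)), and this fall passed in all 22 alternatives, with log2 differences of -1.53 to -1.31.

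The complemented lines gave different answers for ERF4. Line 5 read 1454 and 1764, next to the wild-type, and line 6 read 788 and 786, next to oxt6. Taken alone, line 5 differed from the wild-type by -0.28 (adjusted p = 0.144), and oxt6 differed from line 5 by -1.12 (adjusted p = 0.000141). Line 6 alone differed from the wild-type by -1.30 (adjusted p = 2.07e-05), and oxt6 differed from line 6 by -0.10 (adjusted p = 0.564). With both lines in 1 group, ERF4 was lower in the complemented plants than in the wild-type, at -0.79 ± 0.26 (SE, adjusted p = 0.0144), and narrowly missed the threshold in oxt6 against the complemented plants, at -0.61 ± 0.26 (SE, adjusted p = 0.0505), which it passed without line 6 replicate 1, at -0.78 (adjusted p = 0.0166), or replicate 2, at -0.78 (adjusted p = 0.0149).

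ERF3 was lower in oxt6 leaves than in both other groups. It ranged over 91.6 to 102.5 in oxt6, 167 to 183 in the complemented plants and 121 to 207 in the wild-type, without overlap of oxt6 and the other groups. The log2 difference of ERF3 in oxt6 was -0.74 ± 0.19 (SE, adjusted p = 0.0102) against the wild-type and -0.85 ± 0.18 (SE, adjusted p = 0.000809) against the complemented plants. The complemented plants and the wild-type differed by 0.11 (adjusted p = 0.605), with an interval of -0.28 to 0.49. Without wild-type replicate 2 the fall against the wild-type no longer passed, at -0.58 (adjusted p = 0.0531).

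ERF8, the third repressor, passed in none of the comparisons, although each oxt6 array (330.5 to 452) and each complemented array (405 to 474) was lower than each wild-type array (501.5 to 525). Its log2 difference in oxt6 against the wild-type was -0.40 (adjusted p = 0.095).

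CEJ1 and AT5G25190, the other AP2/ERF proteins, changed in opposite directions in oxt6. CEJ1, also known as DEAR1, ranged over 62.8 to 91.7 in oxt6, 81.4 to 109 in the complemented plants and 134 to 146 in the wild-type, and all oxt6 and complemented arrays were below the wild-type. It was lower in oxt6 leaves than in the wild-type, at -0.90 ± 0.18 (SE, adjusted p = 0.00194), and lower in the complemented plants than in the wild-type, at -0.58 ± 0.16 (SE, adjusted p = 0.00618). The difference between oxt6 and the complemented plants did not pass, at -0.32 (adjusted p = 0.101).

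AT5G25190 read 187, 333 and 285 in oxt6, 52.1, 64.8, 49.0 and 45.5 in the complemented plants, and 154, 125.5 and 125 in the wild-type. The 3 groups did not overlap, with oxt6 highest and the complemented plants lowest. AT5G25190 was higher in oxt6 leaves than in the wild-type by 0.96 ± 0.22 (SE, adjusted p = 0.00496), 4.91-fold higher in oxt6 leaves than in the complemented plants (log2 difference 2.29 ± 0.20 (SE, adjusted p = 9.18e-07)), and lower in the complemented plants than in the wild-type, at -1.34 ± 0.20 (SE, adjusted p = 5.65e-05).

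**Figure D3:**
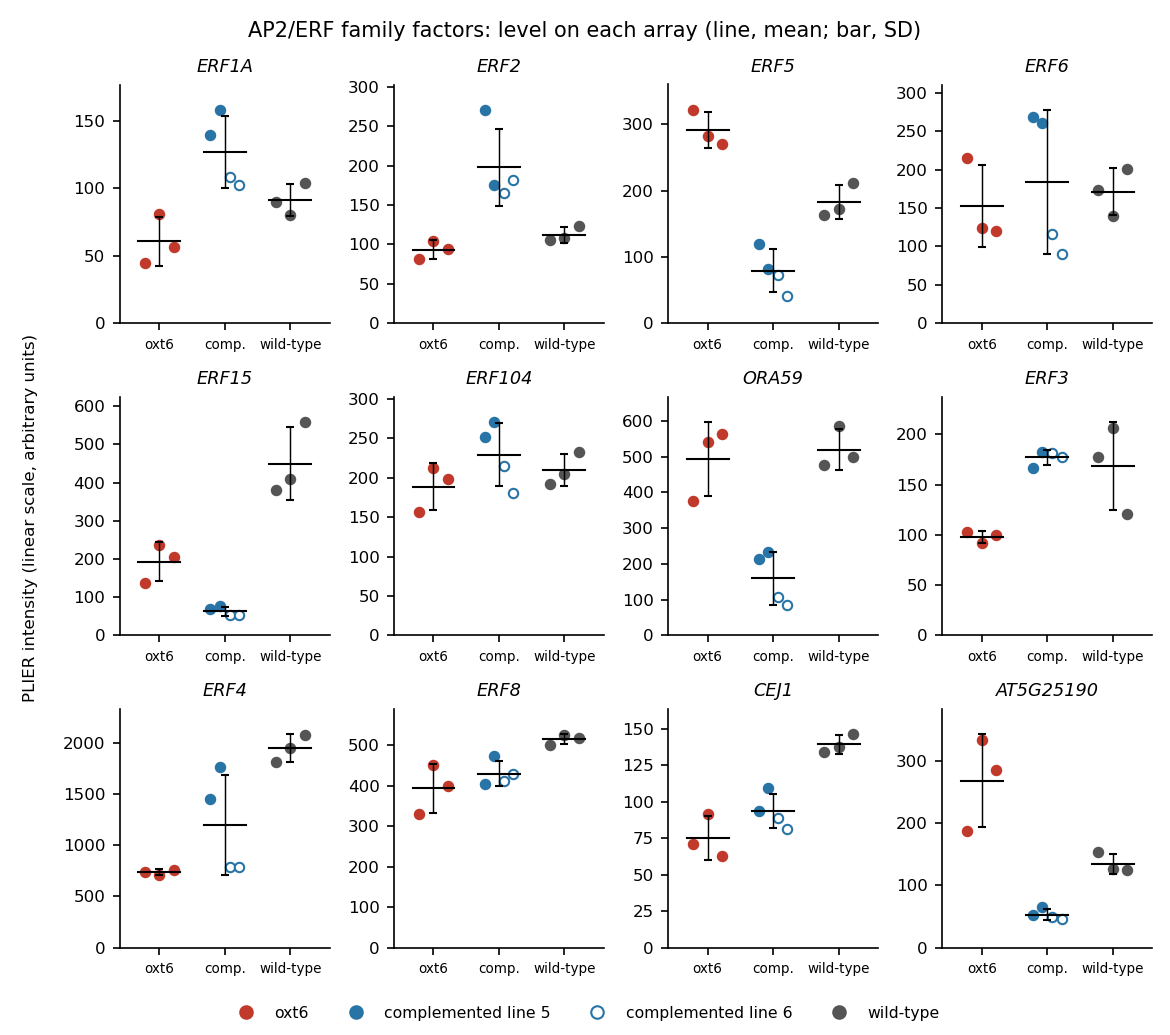
PLIER intensity (y axes, linear scale from 0, each gene on its own scale) of the AP2/ERF factors on each array, in oxt6, complemented plants (comp.; line 5 filled, line 6 open) and the wild-type. Lines are means and bars SDs (n = 3, 4 and 3); for ERF4, ERF6 and ORA59 the filled and open circles lie apart, and for ERF4 the open circles of line 6 lie beside oxt6.

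CAMTA1 and CAMTA3, calmodulin-binding transcription factors, were both lower in the complemented plants than in the wild-type, where 33.8% of all probe sets were. CAMTA1 ranged over 100.3 to 172 in oxt6, 83.4 to 122 in the complemented plants and 167 to 208 in the wild-type, with a difference of -0.84 ± 0.21 (SE, adjusted p = 0.00268) between the last 2. CAMTA3 ranged over 210.4 to 241, 146 to 251 and 257 to 307 in the same groups, with a difference of -0.61 ± 0.19 (SE, adjusted p = 0.0118). CAMTA3 did not pass against the wild-type without wild-type replicate 1 (log2 difference -0.54, adjusted p = 0.0519). With the 3'/5' signal as a covariate neither passed, at 0.0068 (adjusted p = 0.989) for CAMTA1 and -0.60 (adjusted p = 0.267) for CAMTA3. Their differences between oxt6 and the wild-type did not pass, with -0.37 (adjusted p = 0.243) for CAMTA1 and -0.29 (adjusted p = 0.326) for CAMTA3.

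The genes annotated only as ethylene-responsive include 3 basic helix-loop-helix proteins, and all 3 were higher in oxt6 leaves than in the complemented plants, where 32.3% of all probe sets were. With the 3'/5' signal as a covariate none of the 3 passed there, at -0.81 (adjusted p = 0.131) for AT1G05710, -0.025 (adjusted p = 0.969) for AT3G19500 and 0.65 (adjusted p = 0.216) for AT2G31730. AT1G05710 read 41.9, 105.5 and 113 in oxt6, 39.8, 47.8, 51.5 and 36.1 in the complemented plants, and 27.4, 31.6 and 36.9 in the wild-type. The replicates of oxt6 were uneven, with replicate 1 at the level of the complemented plants and the other 2 above all remaining arrays. AT1G05710 was higher in oxt6 leaves than in the wild-type by 1.30 ± 0.31 (SE, adjusted p = 0.00737) and than in the complemented plants by 0.86 ± 0.29 (SE, adjusted p = 0.0189). The complemented plants and the wild-type differed by 0.44 (adjusted p = 0.194). Without oxt6 replicate 2 the difference from the complemented plants no longer passed, at 0.65 (adjusted p = 0.0888), nor did it without oxt6 replicate 3, at 0.61 (adjusted p = 0.113).

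AT3G19500 read 48.6, 87.4 and 82.7 in oxt6, 35.6, 36.7, 27.3 and 25.7 in the complemented plants, and 122, 101 and 190.0 in the wild-type. It was lower in oxt6 leaves than in the wild-type, at -0.90 ± 0.27 (SE, adjusted p = 0.0242), and lower again in the complemented plants, by a log2 difference of -2.07 ± 0.25 (SE, adjusted p = 1.08e-05) from the wild-type, which left oxt6 above the complemented plants by 1.16 ± 0.25 (SE, adjusted p = 0.00109). The difference between oxt6 and the wild-type did not pass without oxt6 replicate 1, at -0.64 (adjusted p = 0.0732), or without wild-type replicate 3, at -0.64 (adjusted p = 0.113).

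AT2G31730 read 76.6, 121 and 107 in oxt6, 40.5, 49.1, 40.5 and 33.1 in the complemented plants, and 68.2, 79.5 and 58.1 in the wild-type. It was higher in oxt6 leaves than in the complemented plants by 1.28 ± 0.20 (SE, adjusted p = 7.17e-05) and lower in the complemented plants than in the wild-type, at -0.74 ± 0.20 (SE, adjusted p = 0.00435), and in oxt6 against the wild-type it did not pass, with 0.55 (adjusted p = 0.07). AT1G09740, of the universal stress protein family, and ERT2, a nuclear protein named for its regulation by ethylene, passed in none of the comparisons. AT1G09740 ranged over 71.8 to 87.8 in oxt6, 95.1 to 123 in the complemented plants and 93.0 to 99.4 in the wild-type, and ERT2 over 93.8 to 103, 99.7 to 119 and 117 to 130.2 in the same groups. RH30, a DEAD box RNA helicase, was too dim to be compared, with 20.6 to 42.7, 41.2 to 54.7 and 20.3 to 50.4.

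Of the 3 genes listed by name or annotation, EGY1, a chloroplast protease, and PDX1.1, of vitamin B6 synthesis, passed in none of the comparisons. EGY1 ranged over 118 to 128 in oxt6, 121 to 160.1 in the complemented plants and 112 to 202 in the wild-type, and PDX1.1 over 248 to 329, 297 to 398 and 298 to 488. MTHFR1 was higher in the complemented plants than in the wild-type by 0.41 (adjusted p = 0.0298) and lower in oxt6 leaves than in the complemented plants, at -0.44 (adjusted p = 0.0216). The first did not pass without line 5 replicate 1, line 6 replicate 1 or 2 or wild-type replicate 1 or 3 (log2 difference 0.33 to 0.45, adjusted p = 0.0502 to 0.104), and the second did not pass without oxt6 replicate 1 or line 6 replicate 1 or 2 (log2 difference -0.43 to -0.30, adjusted p = 0.0526 to 0.0719).

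The 2 complemented lines were then compared with each other, a comparison chosen after the levels had been seen. ERF6, ORA59 and ERF4 were higher in line 5 than in line 6, where 3.20% of all probe sets were higher, and none of the 31 was lower, where 1.06% were. At an unadjusted p under 0.05, 5 of the 31 differed. The log2 differences were 1.37 ± 0.28 (SE, adjusted p = 0.0142) for ERF6, 1.21 ± 0.23 (SE, adjusted p = 0.00815) for ORA59 and 1.02 ± 0.16 (SE, adjusted p = 0.00237) for ERF4. ERF5, at 0.85 (adjusted p = 0.132), and CAMTA3, at 0.58 (adjusted p = 0.135), did not pass. ERF6 passed in no fit that left out 1 of the 4 complemented arrays, with log2 differences of 1.19 to 1.54 and adjusted p of 0.0525 to 0.18, whereas ERF4 passed in each, with adjusted p of 0.0106 to 0.0471. ORA59 did not pass without line 5 replicate 1 or 2 or line 6 replicate 2 (log2 difference 1.05 to 1.28, adjusted p = 0.0526 to 0.131). The 3'/5' signal was 0.081 and 0.10 in line 5 and -0.053 and 0.027 in line 6, and its part in these differences was not tested. The gene next to ERF6 in the genome annotation is ERF1A, which differed between the lines by 0.49 (adjusted p = 0.421). EFE and EIL1, which had the largest rises of the list in the complemented plants against the wild-type, differed between the lines by -0.10 (adjusted p = 0.91) and -0.33 (adjusted p = 0.496).

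Each line was also taken as the only complemented line. With line 5 the differences of ETR1, EIN4, EIN2, EIN3, ERF4, CEJ1, CAMTA3 and MTHFR1 from the wild-type did not pass (adjusted p = 0.054 to 0.179), nor did those of ERS1, EIN4, EIN2, EIN3, AT1G05710 and MTHFR1 between oxt6 and the complemented plants (adjusted p = 0.068 to 0.321). With line 6 those of EIN4 and MTHFR1 from the wild-type (adjusted p = 0.0518 to 0.0674) and of EIN4 and AT1G05710 between oxt6 and the complemented plants (adjusted p = 0.0689 to 0.0902) did not pass. Each such fit has 2 complemented arrays.

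**Figure D4:**
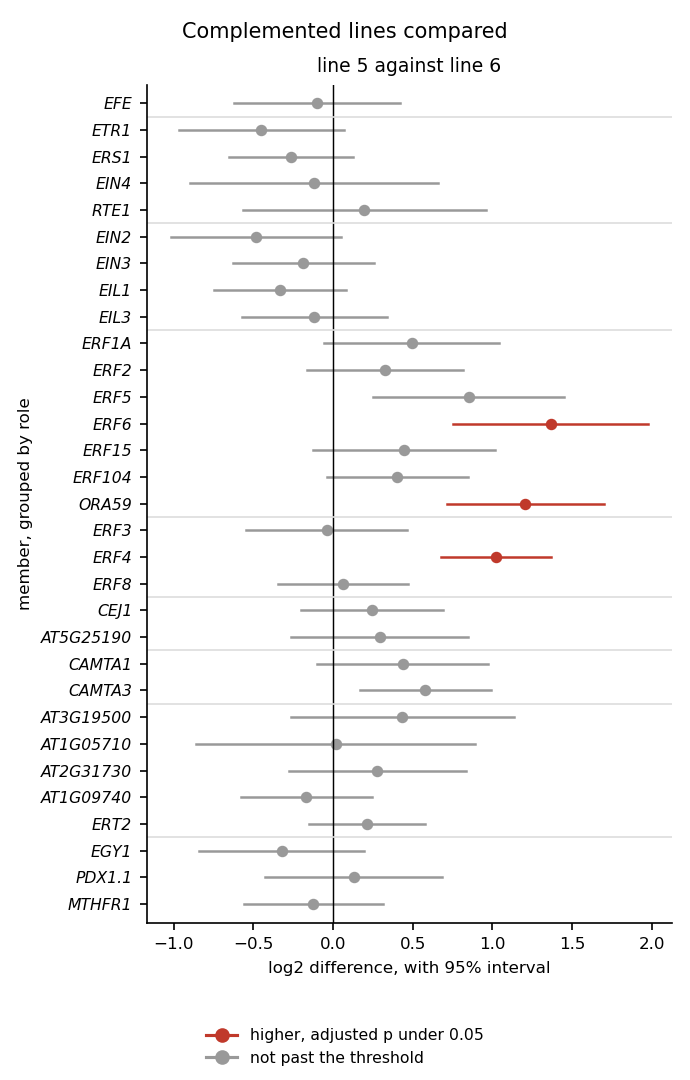
Log2 differences between complemented lines 5 and 6 (x axis, points, line 5 minus line 6) with 95% intervals (lines) for the 31 genes compared, grouped by role. Red marks genes higher in line 5 at an adjusted p under 0.05, which are ERF6, ORA59 and ERF4, and grey the others.

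The 3'/5' signal moved with the complemented plants, so the comparisons were also fitted with the signal of each array as a covariate. The signal ran from 1.09 to 2.88 on the oxt6 and wild-type arrays and from -0.053 to 0.10 on the complemented arrays, so the groups do not overlap in it and the parts of group and signal cannot be told apart. Within groups it varied mostly through oxt6 replicate 1, at 1.09 beside 2.88 and 2.75 on the other oxt6 arrays. Its SD was 0.18 in the wild-type and 0.069 in the complemented plants. The fitted effect of the signal therefore leans on that 1 array. In oxt6 against the complemented plants 2 of the 31 genes were then higher, where 7.07% of all probe sets were, and 6 were lower, where 17.8% were. These were EFE at -2.41 (adjusted p = 0.0018), EIN4 at -2.16 (adjusted p = 0.00172), EIL1 at -1.80 (adjusted p = 0.00397), ERF1A, ERF2 and MTHFR1, all lower, and ERF5 at 2.12 (adjusted p = 0.0287) and AT5G25190 at 1.38 (adjusted p = 0.0126), both higher. EIN4, at -0.66 without the covariate, read 22.4 on oxt6 replicate 1 and 61.1 and 46.8 on the other oxt6 arrays. In the complemented plants against the wild-type 9 were higher, where 24.5% of all were, and 1 was lower, where 8.58% were. ERF15 was lower, at -1.87 (adjusted p = 0.0042), and EFE, ETR1, ERS1, EIN4, EIL1, ERF1A, ERF2, AT1G05710 and MTHFR1 were higher, EFE by 1.95 (adjusted p = 0.00365) and EIL1 by 1.88 (adjusted p = 0.00269).

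Other differences of the complemented plants did not pass in that fit. They were those of RTE1, EIN2, EIN3, EIL3, ERF5, ORA59, ERF4, CEJ1, AT5G25190, CAMTA1, CAMTA3, AT3G19500 and AT2G31730 from the wild-type, and those of ERS1, RTE1, EIN2, EIN3, EIL3, ERF15, ORA59, ERF3, AT3G19500, AT1G05710 and AT2G31730 between oxt6 and the complemented plants. RTE1 was at 0.16 (adjusted p = 0.778) against the wild-type, ORA59 at -1.09 (adjusted p = 0.211) and ERF4 at -0.69 (adjusted p = 0.36). In oxt6 against the wild-type, whose signals overlap, 5 of the 31 were higher with the covariate, where 19.6% of all probe sets were, and 7 were lower, where 17.5% were. They included all 8 that passed without it, together with RTE1 at 0.57 (adjusted p = 0.0365), AT2G31730 at 0.53 (adjusted p = 0.0372), ERF1A at -0.64 (adjusted p = 0.0174) and ERF8 at -0.41 (adjusted p = 0.0289).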

How the data were processed

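The authors scanned 10 ATH1 arrays and summarised them with PLIER, whose version is not given in the sources used here. The deposited values are linear intensities, none below 16. They were converted to log2 after addition of 1, the 64 control probe sets were left out, and the brightest 54.7% of the others, by mean log2 level, were fitted in limma 3.58.1 under R 4.3.3, each group having its own mean and the variance following the level. Benjamini-Hochberg adjustment ran over all of them. The study's methods used a t-test, kept here as an alternative, and the other alternatives were scalings, filters, offsets, array weights, each line alone, a replicate block, the 3'/5' signal as a covariate and each array left out. The number of arrays limits the precision. The members, the lists and the tests were chosen with earlier results of these data known. All 33 members are accounted for. Values of every array are given for members past the threshold at 2-fold or more in any comparison, for the receptors, EIN2, EIN3, EIL1 and ERF4, and for ERF6, chosen after its values were seen. Of 43 further ethylene genes, 5 have a probe set in the annotation used, which names genes for 14016 probe sets. Roles follow textbook knowledge. Replicate numbers did not pair oxt6 and wild-type arrays, whose deviations from the group means correlated at 0.10, -0.21 and 0.13. The fit was tested on simulated data. The replicates are labelled as biological, and p-values measure the spread between these arrays. In the main fit the complemented arrays shared a mean without a term for the line. Arrays of the same transformant therefore counted as independent in it. Actin, GAPDH and ubiquitin controls gave the 3'/5' signal. Plots were made in Python 3.11.15 with matplotlib 3.10.9. Detection calls, protein and promoter sequences were not used here.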

Additional observations from a re-analysis of the deposited data

Results flagged for a closer look

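On the complemented arrays AT1G09740, of the universal stress protein family, had 1 array far from the others. It read 96.8 and 95.6 in line 5 and 123 and 95.1 in line 6, and the gap of the highest log2 level to its neighbour was 0.931 of the whole range, above Dixon's critical value for 4 samples. Chance alone gives such a gap in about 1 of 20 groups, and 34 were examined, the 33 genes and the 3'/5' signal. Without that array AT1G09740 still passed in no comparison.

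The complemented lines differed for 3 genes by a test of the difference itself. ERF6 was higher in line 5 than in line 6 by a log2 difference of 1.37 (limma, adjusted p = 0.0142), ORA59 by 1.21 (adjusted p = 0.00815) and ERF4 by 1.02 (adjusted p = 0.00237). All 3 genes read higher on both arrays of line 5 than on both of line 6. The lines have 2 arrays each.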

How the results depend on the processing

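The number of the 31 genes past the threshold in oxt6 against the wild-type was 8. It was 5 by the methods' t-test with p below 0.01 unadjusted and no fold limit. The study also required a 2-fold difference there, which left 1 of these 5. The number was 3 with the t-test after Benjamini-Hochberg adjustment, 13 with quantile normalization and 18 with array weights. Of all probe sets compared, 14.8%, 10.7%, 34.7% and 57.0% passed in these settings without a fold limit, against 28.7% in the main fit. In oxt6 against the complemented plants it was 12 by the unadjusted methods' t-test and 8 with the 3'/5' covariate in place of 19, and in the complemented plants against the wild-type 10 with that covariate in place of 21. Between lines 5 and 6, all alternatives of which were added after the data were seen, it was 11 with array weights and 1 to 2 with each complemented array left out, in place of 3. There 20.9% of all probe sets passed with array weights and 1.78% to 2.30% with each array left out, in place of 4.26%. The median difference of the genes in oxt6 against the complemented plants, -0.19, was -0.046 with quantile normalization and 0.011 with median centring, and that of the complemented plants against the wild-type, -0.09, was -0.32 and -0.24. Median centring moved the median of all probe sets to 0.17 and -0.10 in these comparisons. Replicate numbers are shared by oxt6 and wild-type arrays, and with a replicate block 8, 15 and 19 genes passed in the 3 comparisons, where 26.6%, 65.4% and 67.8% of all probe sets did. Among the differences that passed in the main fit, the sign changed with the covariate for AT3G19500 (-0.025) and AT1G05710 (-0.81) in oxt6 against the complemented plants and for RTE1 (0.16) and CAMTA1 (0.0068) in the complemented plants against the wild-type, none of them past the threshold in that fit. Some differences that had not passed also changed sign with the covariate. In oxt6 against the wild-type, where none of them passed, EIN2 changed sign with array weights (-0.18) and EIN3 with array weights (-0.030) and quantile normalization (-0.0092), and with single arrays left out EIN4 ranged over -0.24 to 0.47, EIN2 over -0.12 to 0.20, EIN3 over -0.030 to 0.24 and EIL1 over -0.022 to 0.17. Of the 51 differences past the threshold, 39 lost it under at least 1 alternative. CEJ1, ERF4 and ERS1 in oxt6 against the wild-type, AT5G25190, EFE, EIL1 and ERF5 in oxt6 against the complemented plants, EFE, EIL1, ERF15 and ERS1 in the complemented plants against the wild-type, and ERF4 between the lines kept it under all that were run. Of the 45 that did not pass in the 3 comparisons between groups, 22 passed under at least 1. Quantile normalization or median centring ended calls of EIN2 and MTHFR1 in both comparisons of the complemented plants, of EIN3 in both, and of EIN4 and ERS1 in oxt6 against the complemented plants. The 3'/5' signal differed in the same way with an offset of 16. The cause of these changes was not tested. Signal over background limits ETO1 and RH30, which lay among the dim probe sets.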
